A study of Anguilla anguilla with 12 samples.

Results

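The genes described here encode the motors that move along microtubules, and the proteins that attach to them, in the European eel (Anguilla anguilla). Members were all genes whose product name contained kinesin, dynein, dynactin or Hook homolog, and there were 141 of them among the 31061 genes of the count tables: 68 by the word kinesin, 62 by dynein, 10 by dynactin and 1 by Hook homolog. A fragment was counted for 136 members, and 5 were at 0 in all 12 libraries. RNA had been sequenced from eggs stripped after a DHP injection, from oocytes taken from the ovary just before that injection, from eggs stripped after a progesterone (P) injection and from oocytes taken before it, with 3 libraries in each group. The question was how the transcripts of an oocyte and an egg differ when ovulation is induced with either steroid. DHP is the progestin that induces final maturation of the oocyte in eels, and P is a precursor of it.

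All animals were wild type according to the labels. According to the study's methods they were farmed eels feminized with estradiol, given a steroid implant and matured with weekly carp pituitary extract, so both oocytes and eggs came from females under hormone treatment. Oocytes and eggs came from the same 3 females within each injection. Oocytes were cannulated as ovarian tissue and can carry follicle cells, whereas stripped eggs have left the follicle. The level of a transcript per library therefore depends on the cells present, and fewer cells of a type cannot be told apart from less RNA per cell. The libraries were poly(A)-selected, so the amount of a transcript cannot be told apart from the length of its tail.

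Kinesins are motors that in most families walk towards the plus ends of microtubules. Cytoplasmic dynein walks towards the minus ends and needs dynactin and an adaptor, such as a Hook protein, to carry cargo over long distances. In a maturing oocyte, motors position the nucleus, assemble the meiotic spindle and separate the chromosomes, and the transcripts stored in the egg serve the first divisions of the embryo. Axonemal dyneins bend motile cilia and flagella, which an oocyte does not have.

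Libraries held 6612347 to 9903122 fragments counted in genes. Levels are given as normalised CPM, in which each library's counts are divided by its TMM-scaled size, and they are compared between groups for 1 gene, not between genes, as they were not divided by transcript length. A member was called at an adjusted p under 0.01 from edgeR's quasi-likelihood test, adjusted with Benjamini-Hochberg over all genes tested, and fold changes are log2 of eggs over oocytes ± standard error with n = 3 libraries in each group. Over all genes tested, the log2 fold change had a median of -0.20 after DHP and -0.26 after P with TMM scaling, -0.11 and -0.19 with RLE scaling, and -0.80 and -1.01 with total counts alone, and changes of members are to be read against these medians. Marker genes of the follicle moved with the comparison: the summed level of 8 granulosa markers was 0 to 3.33 CPM in eggs after DHP, against 50.4 to 143 CPM in oocytes before DHP, and 0 to 0.397 CPM in eggs after P, against 126 to 205 CPM in oocytes before P. Of these 8 markers, 2 (gsdf and inha) were at 0 in all eggs after DHP and 7 in all eggs after P, among them fshr and star. For 13 theca and stroma markers the sum was 143 to 189 CPM in eggs after DHP, against 934 to 2630 CPM in oocytes. The sum was 117 to 156 CPM in eggs after P, against 2152 to 7006 CPM in oocytes before P. Of 11 theca and stroma markers tested, 2 were higher and 4 lower after DHP, and 3 were higher and 7 lower after P. The summed level of 35 oocyte and egg markers was 15996 to 17579 CPM in eggs after DHP, against 4183 to 4729 CPM in oocytes before DHP, and 16209 to 21949 CPM in eggs after P, against 3443 to 4377 CPM in oocytes before P. Of 33 of these oocyte and egg markers tested, 3 were higher and 11 lower after DHP, and 3 were higher and 19 lower after P. The part of the follicle cells in the results below was not tested.

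In eggs after DHP, 9 of the 96 members tested were higher than in oocytes before DHP and 3 were lower, while 7.35% of all genes tested were higher and 6.22% were lower. In eggs after P, 22 of the 100 members tested were higher than in oocytes before P and 18 were lower, against 17.9% and 22.7% of all genes tested. The shares called among the members were thus close to those among all genes, and the classes of motor differed in direction. Counts of called members in each class, here and below, are to be read against the shares among all genes. Among the 56 kinesin motors, 5 of 37 tested were higher and 1 was lower after DHP, with a median log2 fold change of 0.86, and 16 of 39 were higher and 3 lower after P, with a median of 0.97. Among the 30 members of cytoplasmic dynein and dynactin, none of 27 tested was higher and 2 were lower after DHP, with a median of -1.03, and none of 27 was higher and 11 were lower after P, with a median of -0.91. With total counts alone these medians were 0.24 after DHP and 0.23 after P for the kinesins and -1.64 after both for dynein and dynactin, so the signs were kept. The calls shifted with that scaling to 4 higher and 11 lower members after DHP and 12 higher and 28 lower after P, while of all genes 3.23% were higher and 13.9% lower after DHP and 8.44% and 33.9% after P.

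**Figure D1:**
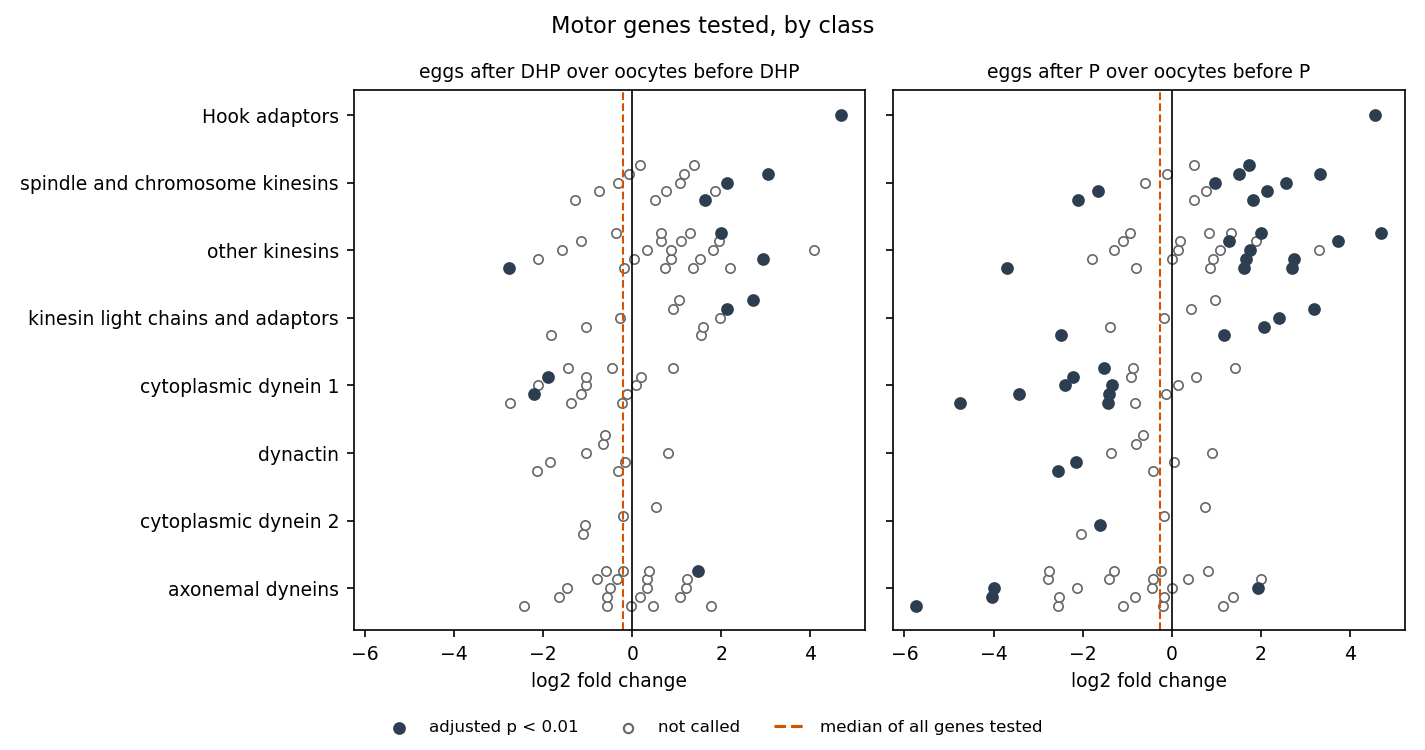
Log2 fold change of each member tested, by class, for eggs over oocytes after DHP (left) and after P (right). Each circle is 1 member, filled circles passed an adjusted p of 0.01, and the dashed line is the median of all genes tested (-0.20 and -0.26). Filled circles lie to the right in the 3 kinesin classes with few exceptions. In the 3 classes of cytoplasmic dynein and dynactin they lie to the left, and after DHP only cytoplasmic dynein 1 has any.

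All 12 members called after DHP were also called after P, in the same direction. The study likewise reported that most genes it found changed after DHP were also changed after P. The overlap is therefore not read as particular to the members, and its share over all genes called here is not given. Of the 28 members called after P alone, 25 were tested after DHP, all 25 had the same sign there, and 20 of them had an unadjusted p under 0.05. Of all 15149 genes tested after DHP, 6954 had an unadjusted p under 0.05. The share with the same sign over all genes called after P is not given here. With the replicate block, in which both libraries of each female form a pair, 13 members were higher and 6 lower after DHP, and 27 were higher and 22 lower after P, against 9.12% and 8.92% of all genes after DHP and 22.02% and 26.6% after P. The number of calls after DHP varied with the library left out: 2 members were higher without library 7, 11 or 12 and 6 without library 4, against 8 without library 8 and 10 without library 3. After P, 17 to 19 members were higher with any 1 library left out, and 11 to 15 were lower, with 11 without library 1 or 6. In these fits 12.3% to 14.9% of all genes were higher and 15.2% to 18.1% were lower. After DHP no member was lower without library 4, 7, 11 or 12 and 1 was without library 3. Of all genes, 0.348% to 1.52% were lower without library 4, 7, 11 or 12, and 3.34% without library 3. The share of all genes called higher after DHP was 0.397% without library 12, 0.407% without library 7 and 0.785% without library 11. Of the 9 members higher after DHP, LOC118221496 and kif22 were called in all 6 fits that left out a library, kif2c, kifc3 and kifap3a in 3, kif18a and LOC118222444 in 2, LOC118217338 in 1 and LOC118211129 in none. Of the 40 members called after P, 27 were called in all 6 such fits, and kifc1, dync2li1, LOC118217017 and LOC118237560 in none. LOC118206350, LOC118208995, dnaaf1, kif14 and si:dkey-26i13.8 were called in 1 of them. Of the 3 members lower after DHP, LOC118215807 was called in 2 of the 6 fits that left out a library, LOC118233212 in 1 and dync1h1 in none, with log2 fold changes between -2.56 and -1.88, between -2.97 and -2.45, and between -2.10 and -1.59.

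The member with the largest change after DHP was LOC118221496, annotated as protein Hook homolog 2-like, on chromosome 2 from 67119698 to 67134308 of assembly fAngAng1.pri. Hook proteins link dynein and dynactin to their cargo, and in mammals Hook2 is found at the centrosome. It had been named in the study from these samples, so its direction here is not independent evidence. Its level was 425, 299.6 and 444 CPM in eggs after DHP, against 20.2, 13.2 and 9.77 CPM in oocytes before DHP. In eggs after P it was 260.0, 331 and 348 CPM, against 15.8, 7.92 and 14.98 CPM in oocytes before P. Every egg library was above every oocyte library by more than 10 times. The log2 fold change was 4.69 ± 0.41 after DHP (adjusted p = 0.00134, edgeR) and 4.58 ± 0.34 after P (adjusted p = 1.64e-05, edgeR), and it was called in all 6 fits that left out 1 library in each comparison. With total counts the changes were 4.10 and 3.83.

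Among the 15 spindle and chromosome kinesins, 14 were tested, of which 3 were higher and none was lower after DHP, and 7 were higher and 2 lower after P. Of all genes tested, 7.35% were higher and 6.22% lower after DHP, and 17.9% and 22.7% after P. The egg and oocyte libraries did not overlap for 10 of these kinesins after DHP and for 12 after P, against 50.7% and 64.8% of all genes tested. The largest change was in kif22, a chromokinesin that binds chromosome arms and pushes them towards the spindle equator. Kif22 was at 3042, 3388 and 3235 CPM in eggs after DHP, against 488, 339 and 279 CPM in oocytes before DHP. In eggs after P it was at 2721, 3476 and 3989 CPM, against 357, 221 and 419.5 CPM in oocytes before P. The lowest egg library was over 5 times the highest oocyte library in both comparisons. Kif22 rose by 3.06 ± 0.30 on the log2 scale after DHP (adjusted p = 0.00153, edgeR) and by 3.33 ± 0.31 after P (adjusted p = 3.49e-05, edgeR), and like the Hook gene it was called whichever library was left out.

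Kif2c, a kinesin that takes tubulin off microtubule ends and corrects faulty attachments of chromosomes, was at 1590.5, 1793 and 1895 CPM in eggs after DHP, against 489.7, 424 and 689 CPM in oocytes before DHP. Its level was 1421, 1973 and 2100.1 CPM in eggs after P, against 473, 549.7 and 608 CPM in oocytes before P. The groups were apart in both comparisons, with log2 fold changes of 1.64 ± 0.29 after DHP (adjusted p = 0.00421, edgeR) and 1.73 ± 0.24 after P (adjusted p = 0.000282, edgeR). Kif18a, which dampens the movements of chromosomes at the spindle equator, was at 242, 212 and 252 CPM in eggs after DHP, against 77.8, 48.1 and 28.8 CPM in oocytes before DHP. It was at 325, 257 and 263 CPM in eggs after P, against 64.1, 47.2 and 28.7 CPM in oocytes before P. It rose by 2.12 ± 0.40 after DHP (adjusted p = 0.00530, edgeR) and by 2.57 ± 0.32 after P (adjusted p = 0.000162, edgeR).

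The other 4 spindle kinesins higher after P were kif4, kif14, kifc1 and LOC118222522. Kif4, a chromokinesin that also acts at the spindle midzone, was at 727, 509 and 549 CPM in eggs after P, against 159, 192 and 144 CPM in oocytes before P (1.83 ± 0.25, adjusted p = 0.000244, edgeR). After DHP its log2 difference was 1.39 ± 0.32 with an adjusted p of 0.0107, and 0.00989 in the paired fit, so that it lies at the threshold. Kif14, which is needed for cytokinesis, rose by 1.51 ± 0.33 after P, and kifc1, a minus-end motor that bundles spindle microtubules, by 0.97 ± 0.24. With total counts the log2 fold change of kifc1 after P was 0.23, which did not pass the test. LOC118222522, annotated as KIF20A, a kinesin of the spindle midzone, was at 25.7, 38.3 and 14.2 CPM in eggs after P, against 4.68, 9.88 and 2.69 CPM in oocytes before P, and rose by 2.15 ± 0.56. It was called in 2 of the 6 fits that left out a library. It took 10.7% to 27.2% of the counts of its pair in eggs after P, against 2.14% to 5.44% in oocytes before P. The other copy, kif20a, held the rest and did not pass the test, with log2 differences of -0.33 after DHP and -0.11 after P.

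Both tested copies of the tubulin-removing kinesin KIF2A fell after P, in the opposite direction to kif2c. Kif2a was at 13.4, 5.75 and 6.46 CPM in eggs after P, against 36.0, 42.5 and 30.0 CPM in oocytes before P (-2.10 ± 0.42, adjusted p = 0.00205, edgeR). After DHP kif2a did not pass the test (-1.29 ± 0.41, adjusted p = 0.0359, edgeR). LOC118206350, the other copy, was at 5.96, 5.19 and 10.1 CPM in eggs after P, against 24.1, 19.3 and 22.1 CPM in oocytes before P (-1.65 ± 0.40). In eggs after DHP it was at 27.9, 5.90 and 4.53 CPM, against 10.4, 16.1 and 12.001 CPM in oocytes before DHP, where library 4 alone stood above the oocytes and the sign of its change differed between settings. Kif11, the motor that pushes spindle poles apart, did not pass the test in either comparison: it was at 165, 676 and 750.4 CPM in eggs after DHP, against 593, 941 and 1014 CPM in oocytes before DHP, and at 899, 584 and 612 CPM in eggs after P, against 1011, 1164 and 966 CPM in oocytes before P. Library 4 had the lowest kif11 level and, with 276 CPM against 72.2 and 116 CPM in the other eggs after DHP, the highest kif14 level. Kif20bb and kif23, kinesins of late mitosis, were higher in every egg library than in the oocytes of the same injection but did not pass the test, with log2 differences of 0.51 to 0.78. With total counts these were between -0.22 and 0.16, and kif23 passed after P in the paired fit (adjusted p = 0.00783, edgeR).

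**Figure D2:**
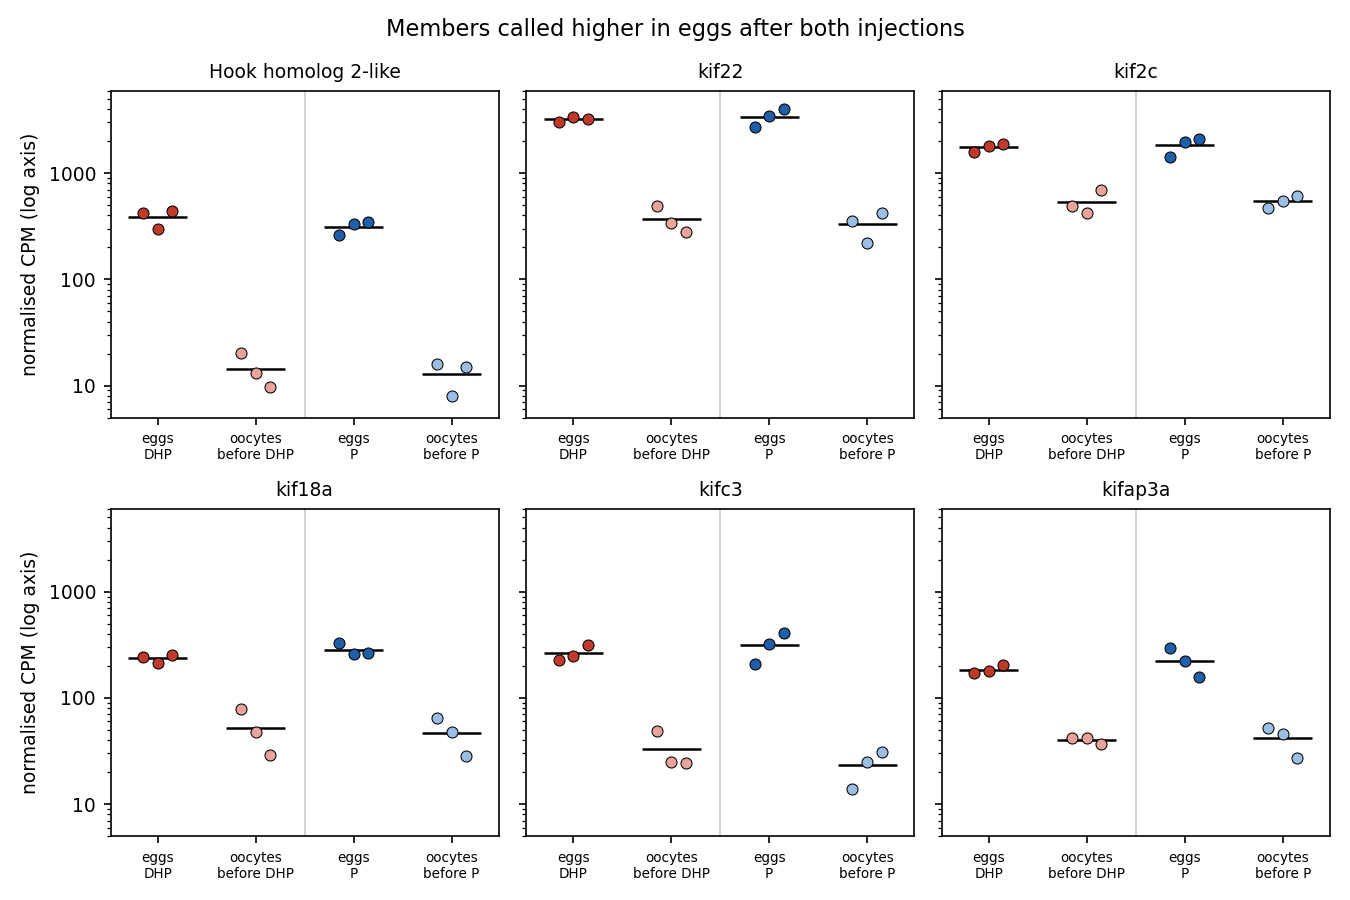
Normalised CPM by library (log axis, the same in all panels) of 6 members called higher in eggs after both injections. Each point is 1 library, bars are the means of 3 libraries, and groups are eggs and oocytes for DHP and for P. In each panel all egg libraries lie above all oocyte libraries of the same injection.

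The remaining 41 kinesins are transport, ciliary and less studied motors, and 23 of them were tested after DHP and 25 after P. Of these, 2 were higher and 1 lower after DHP, and 9 were higher and 1 lower after P. The shares over all genes were 7.35% higher and 6.22% lower after DHP, and 17.9% and 22.7% after P. Kifc3, a minus-end directed kinesin with roles at cell junctions and in transport, was at 229, 245 and 315 CPM in eggs after DHP, against 49.2, 24.8 and 24.3 CPM in oocytes before DHP. It was at 209, 321 and 411 CPM in eggs after P, against 13.96, 25.0 and 30.7 CPM in oocytes before P. Kifc3 rose by 2.94 ± 0.39 after DHP (adjusted p = 0.00211, edgeR) and by 3.73 ± 0.38 after P (adjusted p = 5.77e-05, edgeR). A second gene annotated as KIFC3, si:ch211-257p13.3, had too few counts to be tested.

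After P, kif13bb, a plus-end motor for vesicles, was at 179, 262 and 177 CPM in eggs, against 47.4, 56.3 and 46.6 CPM in oocytes before P (2.02 ± 0.26, adjusted p = 0.000197, edgeR). LOC118223453, annotated as the vesicle motor KIF1C, was at 237, 123 and 225 CPM in eggs after P, against 42.0, 27.4 and 18.8 CPM in oocytes before P (2.71 ± 0.38, adjusted p = 0.000303, edgeR). Neither passed the test after DHP, with adjusted p of 0.0132 and 0.0237, and the paired fit gave LOC118223453 an adjusted p of 0.00439. Kif1aa, the eel counterpart of a motor for synaptic vesicle precursors, was low in all groups, at 6.35, 7.01 and 4.47 CPM in eggs after P, against 0.450, 0.0754 and 0.108 CPM in oocytes before P. It rose by 4.72 ± 0.80 after P, and after DHP its adjusted p was 0.00828 in the paired fit and 0.0172 in the unpaired one (edgeR). Kif1aa had 5, 1 and 1 counts in oocytes before P and 0, 1 and 6 in oocytes before DHP. It passed the filter only through eggs, so a rise was the only direction open to it. The other KIF1A copy, kif1ab, had 175, 70 and 221 counts in eggs after P, against 48, 50 and 27 for kif1aa. Kif1ab differed by 1.89 after P and 2.19 after DHP and was not called. LOC118237560, annotated as KIF24, and si:dkey-26i13.8, annotated as KIF19, also rose after P, by 1.30 ± 0.34 and 2.74 ± 0.68, and LOC118237560 overlaps another annotated gene. Si:dkey-26i13.8 was at 2.38, 5.05 and 6.46 CPM in eggs after P, against 0.450, 0.603 and 0.970 CPM in oocytes before P. Its counts in these oocytes were 5, 8 and 9, so it too would not have passed the filter without the eggs. The gene named kif19 was not called and went the other way. Kif19 was at 2.25, 2.80 and 4.97 CPM in eggs after P, against 8.10, 18.1 and 7.65 CPM in oocytes before P.

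The motor of intraflagellar transport and vesicle traffic, kinesin-2, is built of kif3a, kif3b and the associated protein kifap3a. Kifap3a was called after both injections, kif3b after P alone and kif3a after neither. Whether their changes differ from each other was not tested. Kifap3a was at 170.0, 180.1 and 203 CPM in eggs after DHP, against 42.2, 41.6 and 36.9 CPM in oocytes before DHP, and at 293, 223 and 158 CPM in eggs after P, against 52.4, 45.6 and 27.3 CPM in oocytes before P. It rose by 2.13 ± 0.31 after DHP (adjusted p = 0.00258, edgeR) and by 2.41 ± 0.34 after P (adjusted p = 0.000305, edgeR). Kif3b was at 151, 233 and 191 CPM in eggs after P, against 66.6, 56.3 and 44.5 CPM in oocytes before P, and rose by 1.76 ± 0.27. After DHP kif3b missed the threshold (1.09 ± 0.38, adjusted p = 0.0496, edgeR). Kif3a overlapped between eggs and oocytes in both comparisons, with log2 differences of 0.64 ± 0.41 after DHP and 0.19 ± 0.35 after P and 95% limma-voom intervals of -0.35 to 1.41 and -0.50 to 1.01.

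Kinesin light chains and adaptors join motors to cargo, and 2 of 10 tested were higher after DHP, while 4 of 9 were higher and 1 lower after P. The shares over all genes were 7.35% higher after DHP, and 17.9% higher and 22.7% lower after P. Besides kifap3a, LOC118222444 was higher after both. It is annotated as trafficking kinesin-binding protein 2-like, an adaptor for mitochondria, and overlaps the gene LOC118222449. It was at 195, 156 and 277 CPM in eggs after DHP, against 56.5, 11.8 and 23.7 CPM in oocytes before DHP, and at 119, 226 and 188 CPM in eggs after P, against 18.7, 29.7 and 8.30 CPM in oocytes before P. The changes were 2.70 ± 0.56 and 3.20 ± 0.46. A second gene with that product name, LOC118214658, had too few counts to be tested. It had 1 count in eggs after DHP, against 16 in oocytes before DHP. In eggs after P it had 3, 7 and 1 counts, against 0, 4 and 2 in oocytes before P. Both genes annotated as kinesin light chain 1-like rose after P, LOC118219558 by 2.07 ± 0.31 and LOC118218256 by 1.19 ± 0.22, and with total counts the change of LOC118218256 was 0.44. Kifbp, a protein that binds several kinesins and blocks their hold on microtubules, was the 1 member of the class called lower. It was at 9.002, 5.61 and 3.97 CPM in eggs after P, against 48.8, 27.2 and 26.6 CPM in oocytes before P (-2.48 ± 0.45, adjusted p = 0.00117, edgeR). After DHP the adjusted p of kifbp was 0.00975 in the paired fit and 0.0181 in the unpaired one (edgeR).

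Where the genome holds more than 1 gene of a product family, the copies did not always move together. The 17 families compared were picked by hand. They leave out others that share a name, such as KIF19 and KIFC3, and include dynlrb1 and dynlrb2, which are named as different types. In these 17 families, the 2 copies had the same sign in 13 after DHP and in 11 after P. Signs were opposite in 4 and 6, and both copies were called in opposite directions in 0 after DHP and 1 after P. The other copy of kif4, LOC118222334, changed by 0.49 after P, and that of kif3b, LOC118210635, by -0.81, and neither passed the test. The pairs described here were chosen after the values had been seen. Copies of kinesin-1 heavy chain, the plus-end motor of long-range transport, were called in opposite directions after P. LOC118225440, on chromosome 4, was at 502, 443 and 403 CPM in eggs after P, against 150.4, 183 and 93.4 CPM in oocytes before P, and rose by 1.64 ± 0.28 (adjusted p = 0.000954, edgeR). LOC118233212, on chromosome 8, was at 3.44, 3.79 and 1.49 CPM in eggs after P, against 30.7, 47.8 and 33.5 CPM in oocytes before P, and fell by 3.69 ± 0.46 (adjusted p = 0.000149, edgeR). Its counts in these eggs were 26, 27 and 9, so it would not have passed the filter after P without the oocytes. The signs of the 2 copies were also opposite after DHP. There LOC118233212 changed by -2.78 ± 0.48 (adjusted p = 0.00417, edgeR) and LOC118225440 by 1.36 ± 0.31, with an adjusted p of 0.0103 just above the threshold.

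LOC118225440 thus took 97.8% to 99.2% of the counts of its pair in eggs after DHP, against 71.5% to 81.7% in oocytes before DHP, and 99.2% to 99.6% in eggs after P, against 73.6% to 83.0% in oocytes before P. The shares also differed for KIF1B, a motor for mitochondria and vesicles. LOC118211129 took 85.0% to 90.9% of the counts of its pair in eggs after DHP, against 27.1% to 44.9% in oocytes before DHP, and 84.6% to 85.1% in eggs after P, against 42.2% to 51.2% in oocytes before P. LOC118211129 rose by 2.00 ± 0.41 after DHP (adjusted p = 0.00730, edgeR, with a smallest value of 0.0118 when a library was left out) and by 1.67 ± 0.33 after P (adjusted p = 0.00210, edgeR). The other copy, kif1b, was lower in eggs without passing the test (-1.58 ± 0.59 and -1.08 ± 0.41). These shares do not depend on the scaling of libraries, but they are shares of counts and not of molecules, and reads that fit both copies cannot be assigned with certainty.

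**Figure D3:**
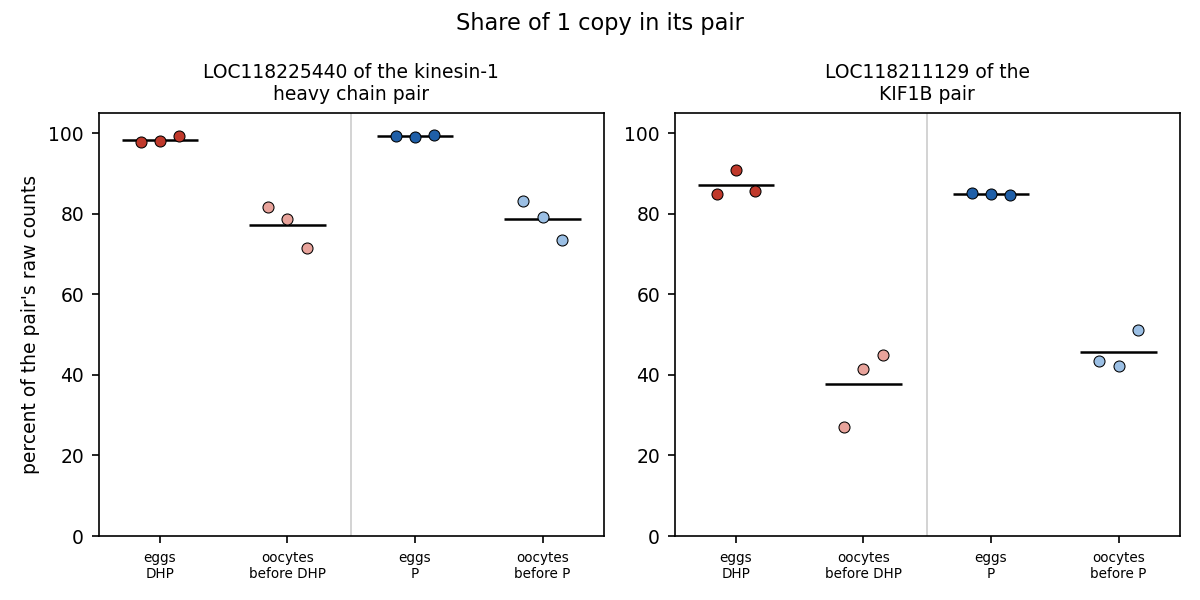
Share of the counts of a gene pair that fell in 1 copy, in percent, for kinesin-1 heavy chain (left, LOC118225440) and KIF1B (right, LOC118211129). Each point is 1 library and bars are means of 3 libraries, and all egg libraries lie above all oocyte libraries of the same injection in both panels.

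Cytoplasmic dynein 1 is built of heavy, intermediate, light intermediate and light chains, and 15 of its 16 members were tested. None was higher in eggs, 2 were lower after DHP and 8 were lower after P, with median log2 fold changes of -1.05 and -1.35. Over all genes, 6.22% were lower after DHP and 22.7% after P, and 7.35% and 17.9% were higher. The heavy chain dync1h1, which carries the motor itself, was at 22.2, 49.8 and 40.8 CPM in eggs after DHP, against 137, 151 and 107 CPM in oocytes before DHP. It was at 55.6, 54.8 and 43.5 CPM in eggs after P, against 109, 128 and 164 CPM in oocytes before P. The groups did not overlap, and dync1h1 fell by 1.88 ± 0.39 after DHP (adjusted p = 0.00729, edgeR) and by 1.40 ± 0.27 after P (adjusted p = 0.00161, edgeR). LOC118215807, a light intermediate chain 2-like subunit that binds adaptors, was at 22.4, 30.9 and 10.2 CPM in eggs after DHP, against 59.2, 118 and 101 CPM in oocytes before DHP. It was at 7.15, 10.5 and 13.6 CPM in eggs after P, against 105, 123 and 103 CPM in oocytes before P. It fell by 2.21 ± 0.48 after DHP (adjusted p = 0.00846, edgeR) and by 3.43 ± 0.33 after P (adjusted p = 4.17e-05, edgeR).

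The largest fall among dynein 1 members after P was in dynlrb1, a roadblock-type light chain. Dynlrb1 was at 0.265, 1.82 and 1.32 CPM in eggs after P, against 21.7, 28.3 and 41.1 CPM in oocytes before P, and fell by 4.76 ± 0.62 (adjusted p = 0.000205, edgeR). Its counts were 2, 13 and 8 in eggs after P and 15, 60 and 9 in eggs after DHP. Without the oocytes it would not have passed the filter in either comparison. A fall after P was thus the only direction open to it. In eggs after DHP it was at 2.05, 9.08 and 1.51 CPM, against 19.2, 39.1 and 21.4 CPM in oocytes before DHP (-2.74 ± 0.72), with an adjusted p of 0.00441 in the paired fit and 0.0181 in the unpaired one (edgeR). Its paralog dynlrb2 spread widely within every group, from 61.8 to 445 CPM in eggs after P, against 105 to 242 CPM in oocytes before P, and did not pass the test. The other 5 members that fell after P were light chains, which other complexes use as well, and a light intermediate chain: dynlt1 (-2.39 ± 0.45), LOC118227769 (-2.21 ± 0.42), LOC118214561 (-1.52 ± 0.32), dynll2b (-1.43 ± 0.24) and LOC118213120 (-1.35 ± 0.29). Dynll2b overlaps srsf1b, and its counts may hold fragments of that gene.

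Not all subunits were lower. The intermediate chain dync1i2a was at 99.5, 125 and 113 CPM in eggs after DHP, against 129, 111 and 108 CPM in oocytes before DHP, and at 114, 124 and 73.5 CPM in eggs after P, against 117, 113 and 106 CPM in oocytes before P. Dync1li1, a light intermediate chain, was at 102, 81.6 and 78.6 CPM in eggs after DHP, against 74.4, 62.1 and 97.1 CPM in oocytes before DHP, and at 104, 80.8 and 84.1 CPM in eggs after P, against 97.3, 74.1 and 68.8 CPM in oocytes before P. Both genes overlapped between the groups, and dync1i2a shares its position with slc25a12, so that its counts may hold fragments of that gene. The 95% limma-voom intervals of the log2 difference of dync1i2a were -0.76 to 0.51 after DHP and -0.74 to 0.43 after P. Those of dync1li1 were -0.61 to 0.82 and -0.42 to 0.72. With 3 libraries a group, changes within these intervals were not excluded. With total counts the log2 differences of dync1i2a were -0.73 and -0.87 and those of dync1li1 were -0.50 and -0.60. LOC118227763, a light intermediate chain 1-like gene, was at 11.5, 32.7 and 23.8 CPM in eggs after DHP, against 9.05, 13.4 and 11.8 CPM in oocytes before DHP. In eggs after P it was at 71.6, 55.8 and 13.6 CPM, against 26.1, 14.5 and 11.5 CPM in oocytes before P. The groups overlapped in both comparisons, and its log2 differences of 0.92 ± 0.50 and 1.42 ± 0.57 were the highest among dynein 1 members and did not pass the test.

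Dynactin activates dynein, and 8 of its 10 members were tested, of which none was called after DHP and 2 were lower after P. Of all genes tested, 6.22% were lower after DHP and 22.7% after P. Dctn5, a subunit at the pointed end of the dynactin filament, was at 4.37, 3.51 and 3.14 CPM in eggs after P, against 21.5, 16.6 and 25.6 CPM in oocytes before P (-2.54 ± 0.41, adjusted p = 0.000617, edgeR). LOC118231309, a dynactin subunit 6-like gene of the same end, was at 4.90, 4.21 and 8.44 CPM in eggs after P, against 30.6, 20.9 and 24.6 CPM in oocytes before P (-2.14 ± 0.42, adjusted p = 0.00179, edgeR). In eggs after DHP dctn5 was at 3.56, 5.90 and 3.02 CPM, against 11.9, 19.3 and 11.3 CPM in oocytes before DHP, and LOC118231309 at 2.46, 7.11 and 3.35 CPM, against 13.04, 21.4 and 19.9 CPM, where the adjusted p of LOC118231309 was 0.00832 in the paired fit and 0.0174 in the unpaired one (edgeR). Dctn1b, the large subunit that binds dynein and microtubules, had positive log2 differences of 0.81 ± 0.41 and 0.91 ± 0.32 and did not pass the test. The member with the most counts, LOC118235317 (dynactin subunit 3-like), overlapped between groups in both comparisons.

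**Figure D4:**
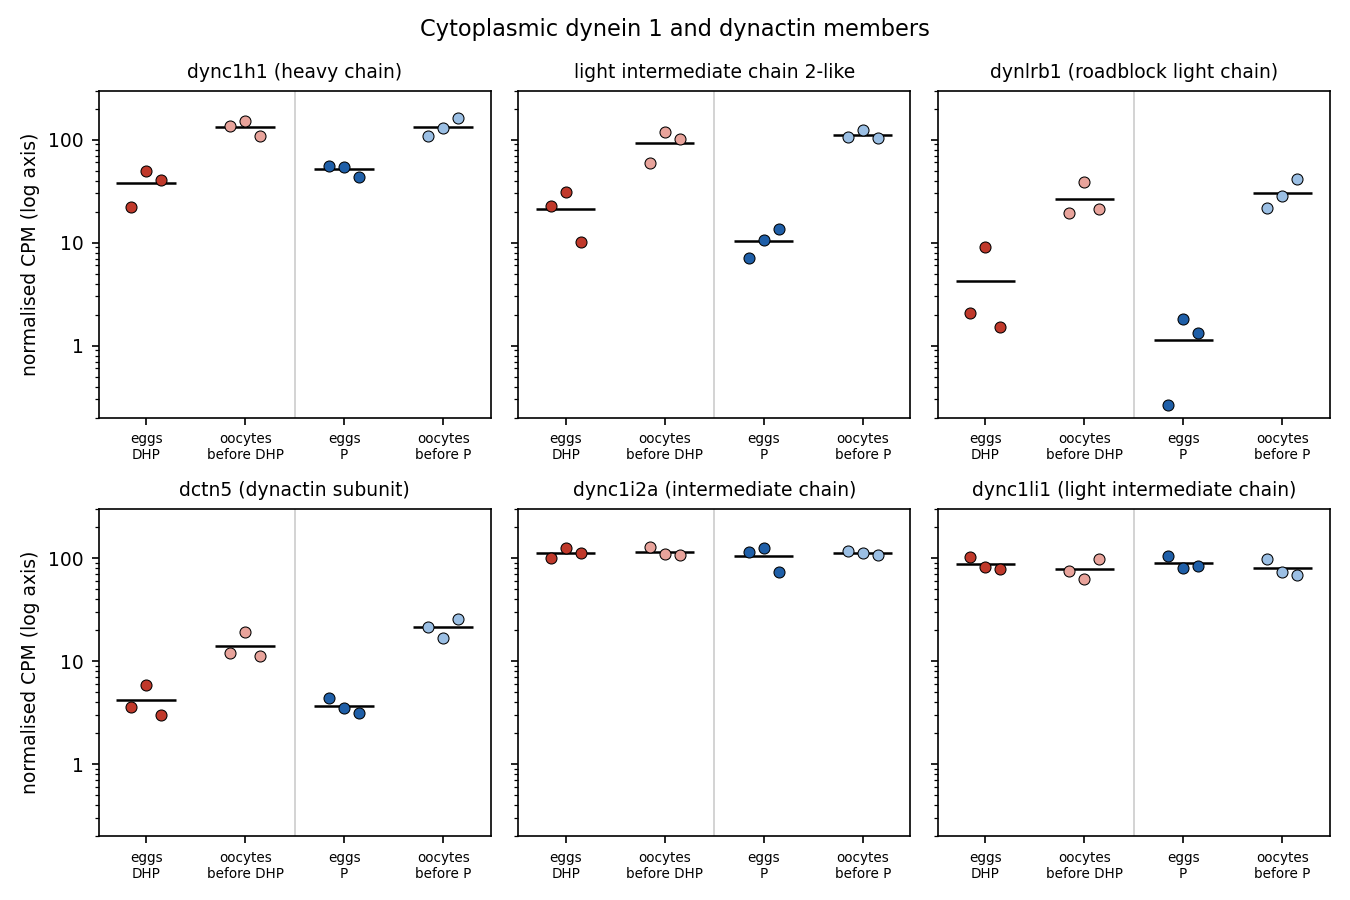
Normalised CPM by library (log axis, the same in all panels) of 5 dynein 1 members and the dynactin member dctn5. Points are libraries and bars are means of 3 libraries; the first 4 panels show members called lower in eggs after P, and dync1i2a and dync1li1 are members that overlap between eggs and oocytes.

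The summed counts of the spindle and chromosome kinesins were set over those of cytoplasmic dynein 1 within each library, which needs no scaling between libraries. The ratio was 10.6, 9.004 and 11.1 in eggs after DHP, against 2.19, 2.29 and 2.34 in oocytes before DHP. It was 12.6, 8.55 and 13.6 in eggs after P, against 2.55, 2.78 and 2.73 in oocytes before P. Kif22 and kif2c together held most of the kinesin counts in eggs but not in oocytes. The groups were well apart, and the ratio is given as a description of these libraries.

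**Figure D5:**
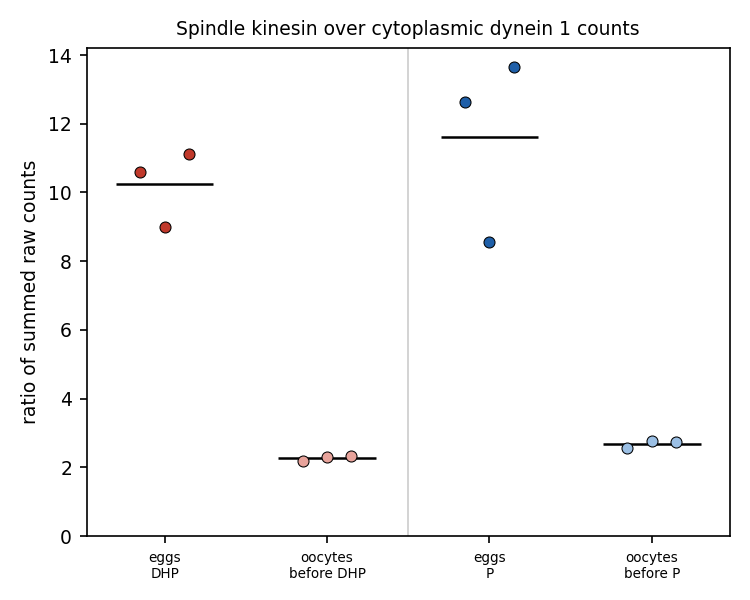
Ratio of the summed raw counts of 15 spindle and chromosome kinesins to those of 16 cytoplasmic dynein 1 members, by library. Points are libraries and bars are means of 3 libraries; egg libraries lie between 8.55 and 13.6 and oocyte libraries between 2.19 and 2.78.

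Cytoplasmic dynein 2 carries cargo back from the tip of the cilium. Its 4 members were tested in both comparisons, and 1, dync2li1, was called, with a smallest adjusted p of 0.0139 when a library was left out (edgeR). It was at 4.10, 7.43 and 7.61 CPM in eggs after P, against 20.3, 18.7 and 18.2 CPM in oocytes before P (-1.60 ± 0.40, adjusted p = 0.00702, edgeR), and it overlaps abcg5. The heavy chain LOC118209690 was at 59.2, 62.1 and 53.1 CPM in eggs after P, against 37.4, 34.5 and 30.6 CPM in oocytes before P, without passing the test (0.75 ± 0.27), and its log2 difference was -0.0017 with total counts.

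Axonemal dyneins, their assembly factors and the dynein regulatory complex made up 42 members, of which 21 were tested after DHP and 24 after P, and most of the others had few counts. After DHP 1 was higher and none lower, and after P 1 was higher and 3 were lower. Those 3 passed the filter only through oocytes before P, where they were high, so a fall was the only direction open to them. They are no support for a direction of the class. Among all genes 7.35% were higher and 6.22% lower after DHP, and 17.9% and 22.7% after P. The higher member was the same gene after both, LOC118217338, a dynein light chain 4, axonemal-like gene that holds the most counts of the class. It was at 169.8, 245 and 273 CPM in eggs after DHP, against 76.1, 73.8 and 83.4 CPM in oocytes before DHP, and at 164, 314 and 419.9 CPM in eggs after P, against 55.3, 71.8 and 101 CPM in oocytes before P. It rose by 1.49 ± 0.32 after DHP (adjusted p = 0.00804, edgeR) and by 1.95 ± 0.37 after P (adjusted p = 0.00162, edgeR). Neither call was made with total counts (adjusted p = 0.0406 and 0.0140).

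The 3 members lower after P all had few counts. The assembly factor dnaaf1 had 1 count over the 3 egg libraries after P and 98 over the oocyte libraries, a ratio of 60.4 with a 95% counting interval of 10.6 to 2409, and most of the oocyte counts came from library 9 (7.54 CPM, against 0.900 and 1.36). LOC118217017, dynein assembly factor 5, had 2 counts in eggs after P and 58 in oocytes before P, a ratio of 17.9 (4.73 to 151), and missed the threshold in the paired fit (adjusted p = 0.0155, edgeR). LOC118208995, a dynein regulatory complex protein 9-like gene that overlaps lrch3, was at 0.132, 0.280 and 0.166 CPM in eggs after P, against 7.02, 1.73 and 0.970 CPM in oocytes before P (log2 difference -3.997 ± 1.00). Such intervals cover counting error only. A further 3 members had no count in eggs after P and could not be tested: they were at least 7.39-fold lower than in oocytes before P for dnah7, at least 6.78-fold lower for dnah5l and at least 4.31-fold lower for kif5c, taking 3 counts over the egg group as the floor. The dnah5l counts in oocytes before P were 9, 0 and 24, so that 1 of these libraries was at 0 and another held most of the counts. Dnah7 had 11 counts in eggs after DHP, against 8 in oocytes before DHP. The large heavy chain dnah10 was at 25.7, 24.7 and 22.2 CPM in eggs after P, against 22.1, 29.0 and 28.9 CPM in oocytes before P. Of 27 further motile cilia genes, 1 of 9 tested was higher after DHP, and 4 of 13 were higher and 3 lower after P. Over all genes, 7.35% were higher after DHP, and 17.9% were higher and 22.7% lower after P.

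No member was called between the injections. Of 95 members tested in eggs after P against eggs after DHP, edgeR, DESeq2 and limma-voom called 0, and 3 had an unadjusted p under 0.05. Among all genes edgeR and limma-voom called 0 (0.0%) and DESeq2 called 9. Groups did not overlap for 6 members, against 9.36% of all genes tested. Those 3 were kif3b (0.76 ± 0.28, 95% limma-voom interval 0.13 to 1.38), kif4 (0.60 ± 0.26, 0.05 to 1.16) and si:dkey-26i13.8 (1.81 ± 0.81, 0.10 to 3.93), each with an adjusted p of 0.984 from edgeR. Si:dkey-26i13.8 had 19, 3 and 5 counts in eggs after DHP and passed the filter only through eggs after P. A higher level after P was thus the only direction open to it. For the Hook gene the interval was -0.84 to 0.33 and for kif22 -0.26 to 0.46. Of 97 members tested in oocytes before DHP against oocytes before P, 0 were called by any of the 3 tools (of all genes 0.0% with edgeR and limma-voom and 10 genes with DESeq2) and 2 had an unadjusted p under 0.05, LOC118219913, annotated as dynein light chain 4, axonemal (0.83 ± 0.36), and LOC118206350 (-0.77 ± 0.34). Groups did not overlap for 4 members, against 7.84% of all genes tested. The third smallest p was that of dnaaf1 (-2.04 ± 1.04, adjusted p = 0.999, edgeR).

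The difference between the injections in the change of eggs over oocytes was tested for 105 members in 1 fit of all 12 libraries. None was called by any of the 3 tools (of all genes 0.0% with edgeR and limma-voom and 3 genes with DESeq2), and 2 had an unadjusted p under 0.05. These were LOC118208995 (-3.46 ± 1.21, P minus DHP) and LOC118215807 (-1.28 ± 0.57), followed by dynlrb1 (-2.08 ± 0.97), each with an adjusted p of 1.00 from edgeR. The larger number of members called after P is therefore not shown to be a difference between the hormones for any single member.

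Genes that work with these motors were described by counts. These are to be read against all genes tested, of which 7.35% were higher and 6.22% lower after DHP, and 17.9% and 22.7% after P. Of 32 partners of spindle kinesins, 12 of 28 tested were higher and none lower after DHP, and 18 of 30 were higher and 2 lower after P, with median log2 fold changes of 1.70 after both. Among them were tpx2, a spindle assembly factor that targets kinesins (3.32 ± 0.37 after DHP and 3.51 ± 0.25 after P), prc1b, which binds midzone microtubules (2.81 ± 0.32 and 3.54 ± 0.33), and the centromere kinesin cenpe, whose product name lies outside the rule (1.84 ± 0.35 and 2.15 ± 0.32). Of 24 regulators and adaptors of dynein, 3 of 22 were higher and 2 lower after DHP, and 4 of 23 were higher and 4 lower after P. Those higher after both included nin (3.36 ± 0.59 and 4.35 ± 0.36), an activating adaptor at the centrosome, and numa1 (1.59 ± 0.34 and 2.14 ± 0.30), which gathers spindle poles with dynein. The kinetochore dynein recruiter zw10 was lower after both (-2.23 ± 0.43 and -2.84 ± 0.33), and pafah1b1a, which encodes the dynein regulator LIS1, was lower after P (-1.46 ± 0.30). Of 22 cargo partners of kinesins, 3 of 16 were higher and none lower after DHP, and 5 of 15 were higher and 1 lower after P, the higher ones including the lysosomal kinesin linker arl8bb (1.60 ± 0.31 and 2.06 ± 0.27).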

How the data were processed

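Fragment counts per gene, as deposited by the authors, were made by aligning paired reads of stranded poly(A) libraries to the Anguilla anguilla assembly with TopHat2 2.0.13. SAMtools 1.2 served to drop secondary alignments, and HTSeq 0.6.1p1 made the counts, with a strand setting that the sources used here leave unstated. Further columns of the tables hold the authors' scaled values, fold changes and p-values and were not used.

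Low genes were dropped with filterByExpr (10 counts at least, total 15 at least), and the quasi-likelihood test of edgeR 4.0.16 was run in R 4.3.3 on TMM-scaled counts without pairing. Intervals came from limma-voom (limma 3.58.1). Standard errors are the log2 fold change over the square root of F. The tests were checked on simulated counts. Alternatives were RLE scaling, total counts, other filters, DESeq2 1.42.0, limma-voom, an adjusted p of 0.05, 1 fit of all 12 libraries, pairing and each library left out.

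Groups come from the sample titles, and column headers give only a library number and group. Libraries of a female were paired by the order of their numbers within oocytes and eggs (1 and 2, 5 and 6, 9 and 10, 3 and 4, 7 and 8, 11 and 12), since oocytes and eggs came from the same females. Deviations from group means correlated from 0.272 to 0.416 within these pairs and from -0.299 to -0.0435 in other combinations. Such deviations cancel out within a group, so positive values in pairs push those of the other combinations down. The negative sign of the other combinations is therefore no separate support for the pairing. P-values of the unpaired tests measure the spread between the libraries of 3 females within each group and leave the pairing out. Those of the paired fits measure the spread between females of the change from oocyte to egg.

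All 141 members matched the RefSeq table of fAngAng1.pri by gene ID, and 16 overlap another annotated gene. Members, classes, lists and tests were chosen with earlier results of these data known. Named by rule were, per class, up to 3 members called with the smallest p in each direction and comparison, the member with most counts, and the 3 smallest p between injections. Other members were named after their values were seen.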

Additional observations from a re-analysis of the deposited data

How the results depend on the processing

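Calls after DHP depended on the setting. Higher members after DHP numbered 9, against 19 at an adjusted p under 0.05, 4 with total counts, 17 without a filter, 18 with DESeq2, 14 with limma-voom and 18 in 1 fit of all 12 libraries, and 2 to 10 with 1 library left out (2 without library 7, 11 or 12). Of all genes, 7.35% were higher, against 15.8% at 0.05, 3.23% with total counts, 6.44% without a filter, 14.9% with DESeq2, 9.31% with limma-voom and 11.7% in 1 fit of all libraries. Lower members after DHP numbered 3, against 13 at 0.05, 11 with total counts, 10 with DESeq2, 5 with limma-voom, 9 in 1 fit of all libraries, 6 with the replicate block, and 0 to 4 with 1 library left out (0 without library 4, 7, 11 or 12 and 1 without library 3). Of all genes, 6.22% were lower, against 18.2% at 0.05, 13.9% with total counts, 14.6% with DESeq2, 8.38% with limma-voom, 9.58% in 1 fit of all libraries and 8.92% with the replicate block. With 1 library left out, 0.397% to 6.21% of all genes were higher after DHP and 0.348% to 5.93% were lower. After P, higher members numbered 22, against 12 with total counts and 17 to 19 with 1 library left out, and lower members 18, against 29 at 0.05, 28 with total counts and 11 to 15 with 1 library left out (11 without library 1 or 6). Of all genes, 17.9% were higher after P and 8.44% with total counts, and 22.7% were lower, against 31.6% at 0.05 and 33.9% with total counts. With 1 library left out, 12.3% to 14.9% of all genes were higher after P and 15.2% to 18.1% were lower. The comparisons between injections gave 0 members under every alternative run. With the block, the calls of 7 members changed after DHP and of 11 after P, all towards a call except LOC118217017.

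Of 1148 fold changes of named members recomputed, 17 had another sign, all where the member was not called. The log2 fold change of LOC118206350, eggs after DHP against oocytes before DHP, was 0.0231 with RLE scaling, 0.0224 with DESeq2, 0.0037 without a filter, 0.00099 in 1 fit of all libraries and -1.35 to 0.33 with 1 library left out, above 0 without library 7, 8 or 12. LOC118219913 after DHP was -0.32 with total counts, -0.17 with limma-voom, -0.0668 with the replicate block and -0.30 to 0.84 with 1 library left out, below 0 without library 8. LOC118209690 with total counts was -0.0653 after DHP and -0.0017 after P. Dynlrb2 was -0.62 to 0.20 after DHP with 1 library left out, above 0 without library 3, and after P -0.25 with total counts and -0.23 to 1.03 with 1 library left out, below 0 without library 6. LOC118235317 after DHP was -0.70 to 0.0029 with 1 library left out, above 0 without library 4. The cause was not tested. With 3 libraries a group, members with few counts could be tested only where they were high in 1 group.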
